A study of Mus musculus with 8 samples.

Results

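The transcripts described here encode the subunits of 2 families of ionotropic glutamate receptors, the NMDA receptors (Grin1, Grin2a, Grin2b, Grin2d and Grin3a) and the kainate receptors (Grik1 to Grik5). Their rows were found by gene symbol, and all 10 of the 10 listed subunits were found among the 10588 genes tested, out of 28662 transcripts in the deposited table. RNA was sequenced from the cortex of 4 bigenic and 4 nontransgenic C57BL/6 mice. Bigenic mice (Camk2a-tTa / deltaNLS-hTDP-43) carried a tetracycline transactivator under the Camk2α promoter, which is active mainly in forebrain excitatory neurons, and a tetracycline-responsive human TDP-43 whose nuclear localization signal was mutated. Nontransgenic mice carried neither transgene, and came from parents heterozygous for both. Every mouse in both groups was fed doxycycline, which keeps the transgene off, until 28 days of age, and cortical tissue from the right side was collected after a further 10 days without it. The comparison asks how subunit transcripts differed between the groups at that time. No group here carried the transactivator alone, so effects of the transactivator and of the human protein cannot be told apart. The labels do not say that replicates within a group came from separate litters, and p-values measure the spread between these mice.

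NMDA receptors are tetramers that pass calcium when glutamate and a co-agonist bind together with depolarization, and are known for their part in synaptic plasticity and excitotoxicity in the cortex. Every NMDA receptor contains the GluN1 subunit (Grin1), combined with GluN2 subunits (Grin2a to Grin2d), which set the kinetics of the channel, or with GluN3 subunits (Grin3a and Grin3b), which reduce calcium permeability. Kainate receptors act on both sides of the synapse. GluK1 to GluK3 (Grik1 to Grik3) can form channels on their own, whereas GluK4 and GluK5 (Grik4 and Grik5) bind kainate with higher affinity and need one of the former as a partner.

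TDP-43 is an RNA-binding protein known to prefer UG repeats, so the genomic sequence of the subunit genes was searched on the sense strand for runs of TGTGTGTGTGTG or longer. The longest intronic run, with its flanks, is printed only for the 4 genes whose transcripts differed between the groups. That preference would apply to runs in the other subunit genes as well. Capitals mark the TG run, and sequences are from NCBIM37 (mm9), read 5′ to 3′ on the minus strand, on which each of these 4 genes lies. With 10 bases of flank on each side, the printed stretches lie at chr2:25173044-25173085 (Grin1), chr7:25837436-25837513 (Grik5), chr4:49794998-49795065 (Grin3a) and chr16:87981666-87981745 (Grik1).
Grin1: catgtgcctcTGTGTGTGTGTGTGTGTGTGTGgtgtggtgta
Grik5: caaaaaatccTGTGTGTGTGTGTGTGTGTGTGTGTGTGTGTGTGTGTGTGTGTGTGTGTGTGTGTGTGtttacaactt
Grin3a: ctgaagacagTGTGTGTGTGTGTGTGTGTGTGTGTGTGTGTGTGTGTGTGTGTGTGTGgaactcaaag
Grik1: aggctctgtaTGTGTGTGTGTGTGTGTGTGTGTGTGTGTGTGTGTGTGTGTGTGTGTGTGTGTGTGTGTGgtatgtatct

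The run in Grin1 is 22 bases long, and its middle lies 1.64 kb from the start of the gene. Those in Grik5, Grin3a and Grik1 are 58, 48 and 60 bases long. In all, Grin1 held 7 such runs, Grik5 held 5, Grin3a held 15 and Grik1 held 44, none of which fell in an exon. The 6 subunit genes whose transcripts were not called held between 3 (Grin2d) and 63 (Grin2a) runs, and only Grin2b, Grik3 and Grik4 held any in exons (2, 4 and 4). The longest intronic runs of these 6 genes were 46 (Grin2d) to 72 (Grin2a) bases long, so long runs did not set the called genes apart. Such runs are common in mouse genes. They occurred in 73.7% of the 10245 tested genes that could be located and in all of the 1769 that span 100 kb or more, at 10.5 runs per 100 kb over all located genes. Among the subunit genes the rate ranged from 7.68 runs per 100 kb in Grin2d to 24.99 in Grin1. A run is a description of the sequence, and no binding was measured here.

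The values are normalized counts, that is, reads on a gene's exons that the authors scaled within each mouse and rounded to whole numbers. Column totals lay between 20.1 M and 22.0 M. The size of the steps between values places about 15.2 M reads on genes in bigenic mouse A and 10.6 M in bigenic mouse B, the shallowest library, and between about 20.8 M and 30.1 M in the other mice, where the estimate is less certain. At the shallowest depth 3 reads correspond to 6.20 normalized counts, far below the lowest subunit value of 177, and this floor covers counting error only. Letters name the mice within a group and pair none of them. The transcript with the largest rise in bigenic mice, uc999vvf.1, was taken as the human transgene. It had 29375 to 41550 normalized counts in the bigenic mice and 5 to 80 in the nontransgenic mice. Because it was picked by that rise, it is no independent check of the labels. Bigenic mouse B stood apart on the first 2 principal components (scores of -46.0 and -22.3, against -12.8 to -15.1 and 15.0 to 15.9 in the other bigenic mice). Fold changes of subunits that rest on it are also given without it.

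At an adjusted p-value below 0.05 (limma, Benjamini-Hochberg adjustment over all genes tested), Grin1 and Grik5 were higher and Grin3a and Grik1 were lower in bigenic mice, and the other 6 subunits were not called. Of all genes tested, 35.9% were called, 20.5% as higher and 15.4% as lower, so 4 of 10 subunits is a share close to that of the whole table and is no result about the families. The groups did not overlap for the same 4 subunits, against 39.0% of all genes. The median log2(fold change) of the 10 subunits was -0.08, and that of all genes tested was 0.03. Both families had 1 subunit called higher, 1 called lower and 3 not called. In a bulk sample, a loss of cells that express a subunit and a loss of its RNA per cell cannot be told apart.

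**Figure D1:**
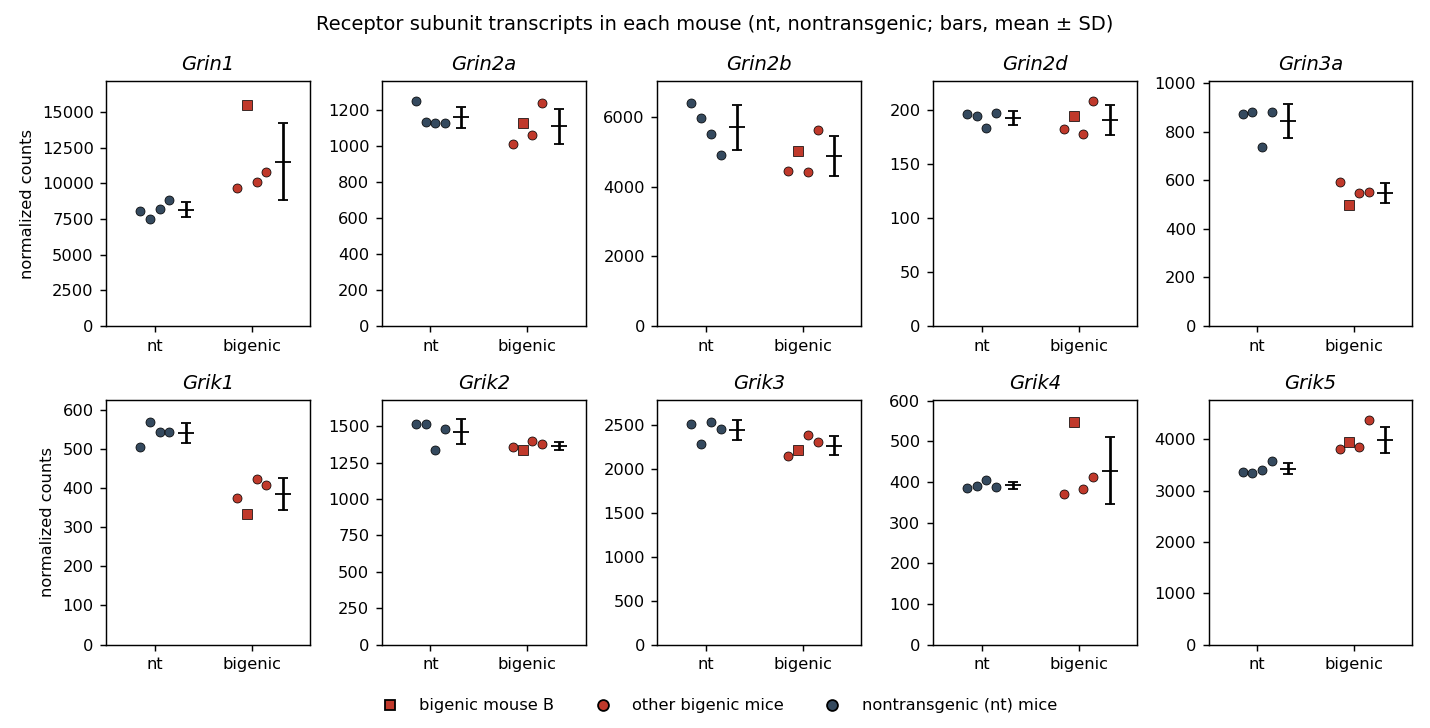
Normalized counts of the 10 subunits in each mouse, 1 panel per gene, each with its own linear axis from 0. Circles are single mice, the square is bigenic mouse B, and bars give the mean ± SD of 4 mice. Grin1 and Grik5 are higher and Grin3a and Grik1 lower in every bigenic mouse than in every nontransgenic mouse, and bigenic mouse B has the highest value of Grin1 (15498) and of Grik4 (548).

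Grin1 (uc008irk.2; chr2:25146701-25174707, minus strand, 21 exons in the longest coding transcript) encodes the subunit that every NMDA receptor needs. Its normalized counts were 9691, 15498, 10116 and 10787 in bigenic mice A to D, and 8056, 7532, 8225 and 8807 in nontransgenic mice A to D. All bigenic mice lay above all nontransgenic mice, and bigenic mouse B lay far above the other bigenic mice. The means were 11523 ± 2688 and 8155 ± 525 (SD, n = 4), and Grin1 rose in bigenic mice with a log2(fold change) of 0.47 (SE 0.14, 95% interval 0.17 to 0.78, limma adjusted p-value = 0.0232). Without bigenic mouse B it was 0.32 on the log2 scale and still called (limma adjusted p-value = 0.00275). The call was lost without nontransgenic mouse A, B or C (limma adjusted p-values of 0.0591, 0.0692 and 0.0558), while the log2(fold change) stayed at 0.47, 0.44 and 0.48. Of the exon bases of Grin1, 13.5% overlap exons of E130003G02Rik on the opposite strand, and no source says whether strand was used in counting, so reads of the 2 genes may not be separable there.

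Grin2b (uc009elq.1; chr6:135679844-136123529) encodes GluN2B, the GluN2 subunit that predominates early in forebrain development. It had 4446, 5021, 4430 and 5636 normalized counts in bigenic mice A to D and 6410, 5968, 5520 and 4911 in nontransgenic mice A to D. Nontransgenic mice C and D lay within the bigenic range, and so the groups overlapped. Grin2b was not called, with a log2(fold change) of -0.22 and a 95% interval from -0.46 to 0.02 (limma adjusted p-value = 0.130). Grin2a (uc007ydc.1; chr16:9577803-9995014) encodes GluN2A, which gains ground over GluN2B as the cortex matures. Its normalized counts were 1011, 1129, 1063 and 1236 in bigenic mice and 1248, 1135, 1130 and 1130 in nontransgenic mice. The groups overlapped, the log2(fold change) was -0.07 (95% interval -0.25 to 0.12), and Grin2a was not called (limma adjusted p-value = 0.552).

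Grin2d (uc009gxm.1; chr7:53087253-53126298) encodes GluN2D, which in the adult cortex is found mainly in interneurons. It was the lowest of the 10 subunits and passed the filter of 10 RPM (per column total) through bigenic mouse D alone. Its values were 182, 194, 177 and 208 in bigenic mice and 196, 194, 183 and 197 in nontransgenic mice. The groups lay within each other, with a log2(fold change) of -0.02 and a 95% interval from -0.26 to 0.22 (limma adjusted p-value = 0.903). Grin2c, the NMDA subunit best known from the cerebellum, is not among the 10 listed genes. Its 693 to 753 normalized counts in bigenic mice and 659 to 841 in nontransgenic mice overlapped, and it was not called (log2(fold change) = -0.09, 95% interval -0.29 to 0.11, limma adjusted p-value = 0.467). Grin3b was not analysed here.

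Grin3a (uc012ded.1; chr4:49674483-49858616, minus strand) encodes GluN3A, a subunit most abundant in the young brain that limits calcium entry. Its normalized counts were 595, 498, 547 and 553 in bigenic mice A to D and 872, 881, 739 and 883 in nontransgenic mice A to D. Every bigenic mouse lay below every nontransgenic mouse. Grin3a fell to 65.0% of the nontransgenic mean, with means of 548 ± 39.7 and 844 ± 70.0 (SD, n = 4). Its log2(fold change) of -0.62 (SE 0.09, 95% interval -0.82 to -0.42, limma adjusted p-value = 0.000832) was the largest in size among the 10 subunits.

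Among the kainate receptor genes, Grik1 (uc007zur.2; chr16:87896441-88289947, minus strand) encodes GluK1, which in the cortex is prominent in interneurons. It had 374, 333, 425 and 409 normalized counts in bigenic mice A to D and 507, 569, 543 and 545 in nontransgenic mice A to D. All bigenic values lay below the lowest nontransgenic value of 507. The means were 385 ± 40.8 and 541 ± 25.6 (SD, n = 4), and Grik1 fell by 0.49 on the log2 scale (SE 0.10, 95% interval -0.71 to -0.28, limma adjusted p-value = 0.00372). Without bigenic mouse B, the log2(fold change) of Grik1 was -0.43 and that of Grin3a was -0.57, and both were still called by limma (adjusted p-values of 0.00127 and 0.000257).

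Grik2 and Grik3 encode GluK2 and GluK3, the other kainate subunits that can form channels alone. Grik2 (uc007fah.2; chr10:48819266-49508572) had 1355, 1334, 1398 and 1380 normalized counts in bigenic mice and 1513, 1519, 1338 and 1484 in nontransgenic mice. Nontransgenic mouse C fell within the bigenic range. The log2(fold change) was -0.10 (95% interval -0.26 to 0.06, limma adjusted p-value = 0.309). Grik3 (uc008usa.2; chr4:125167944-125391417) had 2149, 2223, 2394 and 2305 normalized counts in bigenic mice and 2521, 2287, 2541 and 2456 in nontransgenic mice. The ranges overlapped between 2287 and 2394. The log2(fold change) of Grik3 was -0.11 (95% interval -0.27 to 0.05, limma adjusted p-value = 0.241), and neither gene was called.

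Grik5 (uc009frh.2; chr7:25794872-25857388, minus strand) encodes GluK5, the more widespread of the high-affinity subunits. Its normalized counts were 3810, 3946, 3845 and 4371 in bigenic mice A to D and 3361, 3353, 3397 and 3582 in nontransgenic mice A to D. The groups did not overlap, although the gap between 3582 and 3810 is smaller than the SD of the bigenic mice. The means were 3993 ± 259 and 3423 ± 108 (SD, n = 4), and Grik5 rose with a log2(fold change) of 0.22 (SE 0.07, 95% interval 0.06 to 0.38, limma adjusted p-value = 0.0357). The call was lost in 5 of the 8 fits with 1 mouse left out. These were the fits without bigenic mouse C or D (limma adjusted p-values of 0.0527 and 0.102) and without nontransgenic mouse A, B or C (0.0894, 0.0975 and 0.0919), in which the log2(fold change) was between 0.18 and 0.24.

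Grik4 (uc009paz.2; chr9:42326218-42752576) encodes GluK4, the other high-affinity subunit. It had 370, 548, 382 and 411 normalized counts in bigenic mice and 386, 389, 405 and 387 in nontransgenic mice. Bigenic mouse B alone lay far from the rest, and 2 bigenic mice lay below every nontransgenic mouse. Grik4 was not called (log2(fold change) = 0.11, 95% interval -0.17 to 0.39, limma adjusted p-value = 0.519), and its log2(fold change) was -0.02 without bigenic mouse B. The 2 high-affinity subunits were not tested against each other.

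**Figure D2:**
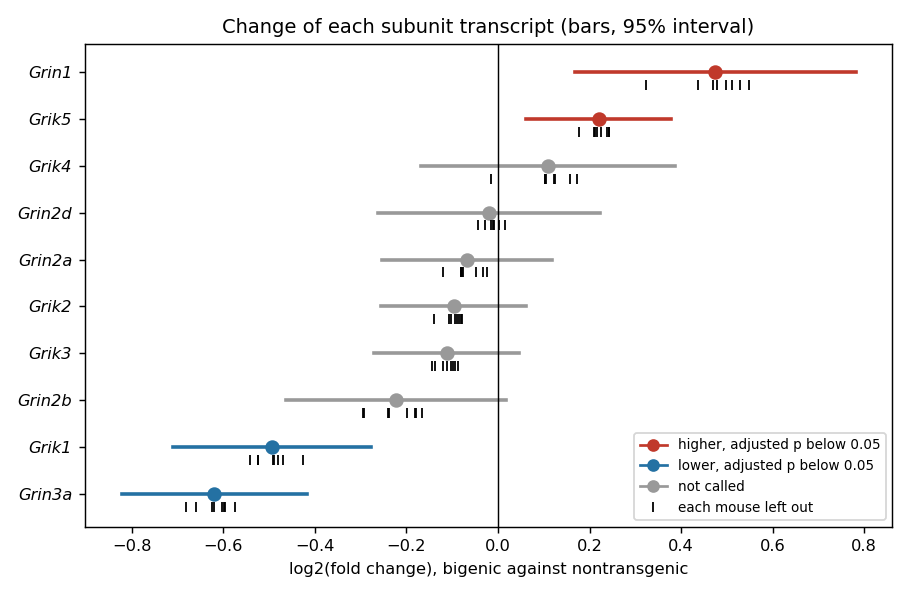
Log2(fold change) of each subunit transcript between bigenic and nontransgenic mice, with the 95% interval from limma as a bar and the value with each mouse left out as short ticks. The intervals of Grin1, Grik5, Grik1 and Grin3a lie clear of 0, and the tick of Grik4 below 0 is the fit without bigenic mouse B.

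Levels of different genes can be set side by side only per length, and normalized counts were therefore divided by the length of each gene's longest coding transcript. On this scale the order in nontransgenic mice was Grin1 (1907 ± 123 per kb, SD, n = 4), Grik5 (892 ± 28.04), Grin2b (762 ± 85.6), Grik2 (305 ± 17.7), Grik3 (273 ± 12.9), Grin2a (241 ± 12.1), Grik1 (187 ± 8.83), Grin3a (113 ± 9.34), Grik4 (66.5 ± 1.52) and Grin2d (35.4 ± 1.19). Neighbours in this order did not overlap between mice except Grik2 with Grik3 and Grik3 with Grin2a. On this length the obligatory NMDA subunit was the most abundant. The order depends on the length chosen. With all exons of a gene merged (a length chosen after seeing the data), Grin1 came to 841 per kb, below Grik5 at 892 per kb. Grik2 came to 177 per kb, below Grik3 at 273 and Grin2a at 219, and Grin3a came to 53.5 per kb, below Grik4 at 66.3.

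**Figure D3:**
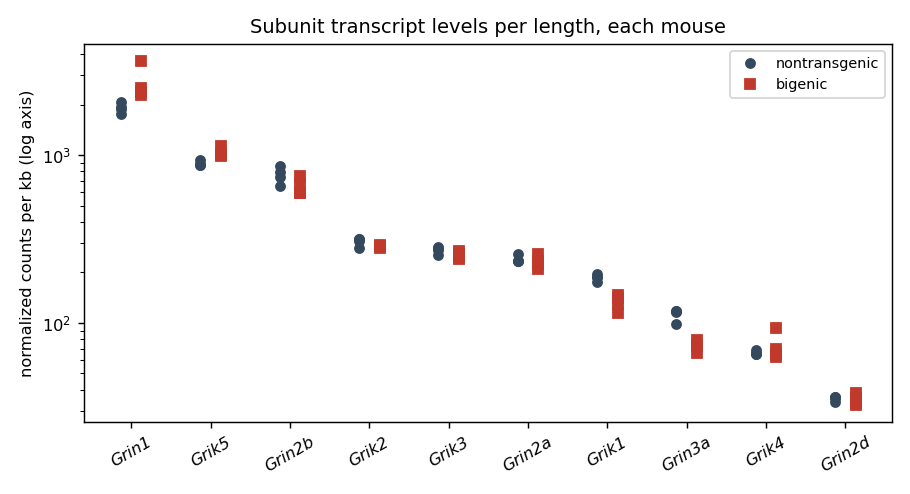
Normalized counts per kb of the longest coding transcript on a log axis, with 1 point per mouse (circles, nontransgenic; squares, bigenic) and subunits ordered by the nontransgenic mean. Levels run from about 35.4 per kb for Grin2d to 1907 per kb for Grin1 in nontransgenic mice.

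The balance between subunits was described in each mouse from the same values per kb, with no test, since it follows from the values above. The ratio of Grin1 to the sum of Grin2a and Grin2b was 2.82, 4.00, 2.91 and 2.50 in bigenic mice A to D and 1.69, 1.71, 1.98 and 2.31 in nontransgenic mice A to D. The groups did not overlap, with or without bigenic mouse B. The level of the ratio rests on the length used. With merged exons it was 1.20 to 1.93 in bigenic mice and 0.814 to 1.11 in nontransgenic mice, again without overlap. Grin3a made up 1.44% to 2.50% of the summed NMDA subunit level in bigenic mice and 3.26% to 3.99% in nontransgenic mice. The ratio of Grin2a to Grin2b was 0.353, 0.349, 0.373 and 0.341 in bigenic mice and 0.302, 0.295, 0.318 and 0.357 in nontransgenic mice, and only nontransgenic mouse D reached into the bigenic range.

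Among the kainate subunits, the ratio of the high-affinity pair (Grik4 and Grik5) to the sum of Grik1, Grik2 and Grik3 was 1.62, 1.75, 1.51 and 1.76 in bigenic mice and 1.22, 1.22, 1.27 and 1.30 in nontransgenic mice. Every bigenic mouse lay above every nontransgenic mouse, and did so with merged exons as well (1.89 to 2.21 against 1.53 to 1.62). Grik5 alone made up 56.6% to 60.1% of the summed kainate subunit level in bigenic mice and 51.1% to 52.7% in nontransgenic mice. Grik1 made up 6.53% to 8.29% and 10.2% to 11.5%, respectively. These are shares of RNA and not of assembled receptors.

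**Figure D4:**
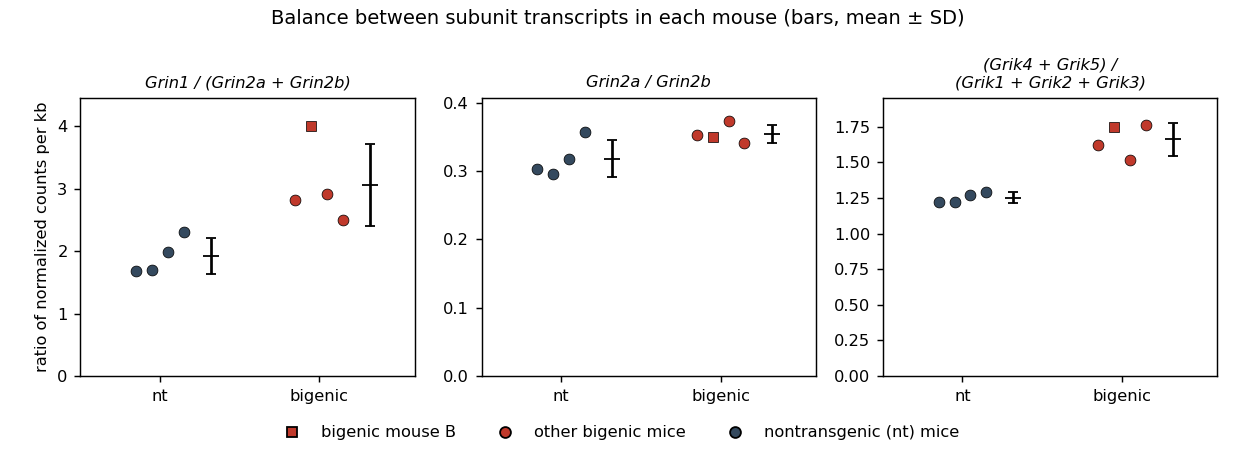
Ratios of subunit transcripts per kb in each mouse, with axes from 0, the square for bigenic mouse B and bars for the mean ± SD of 4 mice. The ratio of Grin1 to Grin2a plus Grin2b and the ratio of high-affinity to other kainate subunits do not overlap between the groups, whereas the ratio of Grin2a to Grin2b does.

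The other ionotropic glutamate receptors were examined as a comparison. Of 6 AMPA and delta receptor genes, Gria1 and Gria3 were called lower and the other 4 were not called. Of all genes tested, 35.9% were called and 15.4% were called lower, and a count in 6 genes is no result about these families. Gria3, which encodes an AMPA receptor subunit, had 4326, 3962, 4583 and 4298 normalized counts in bigenic mice and 8991, 8331, 8884 and 8099 in nontransgenic mice. The bigenic mean was 50.0% of the nontransgenic mean (limma adjusted p-value = 2.46e-05). No subunit listed here had a log2(fold change) of that size, although the difference between genes was not tested. Gria1, another AMPA receptor subunit gene, fell by 0.27 on the log2 scale (limma adjusted p-value = 0.0183).

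Proteins that anchor, modify or respond to these receptors were followed in a list of 50 partner genes, of which 49 were tested. Of these, 9 were called higher, 19 were called lower and 21 were not called (18.4% higher and 38.8% lower), against 20.5% of all genes called higher and 15.4% called lower. In 26 of the 49 (53.1%) the groups did not overlap, against 39.0% of all genes. The list was chosen with earlier results known, and its median log2(fold change) was -0.12. Rasgrf2, a calcium-dependent exchange factor for Ras, had 2163 to 2538 normalized counts in bigenic mice and 5539 to 6344 in nontransgenic mice (log2(fold change) = -1.35, limma adjusted p-value = 1.28e-05).

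Of 12 kinases grouped from the list after the values were seen, 5 were called lower, 1 was called higher and 6 were not called. The grouping left out Ephb2, a receptor tyrosine kinase in the list, which was called higher (log2(fold change) = 0.38, limma adjusted p-value = 0.0341). The shares of the 12 were 41.7% lower and 8.33% higher, against 38.8% and 18.4% of all partners. Of all genes tested, 15.4% were called lower and 20.5% higher. Camk2a, the alpha subunit of the calcium/calmodulin-dependent kinase that binds GluN2B, had 22112 to 30548 normalized counts in bigenic mice and 44895 to 49794 in nontransgenic mice (log2(fold change) = -0.88, limma adjusted p-value = 0.000176). Its promoter is the one that drives the transactivator in these mice. Prkcb and Prkca, which encode protein kinases C, fell, with log2(fold changes) of -0.99 and -0.48. Prkcc, the other conventional protein kinase C gene, was the 1 of the 12 grouped kinases called higher (log2(fold change) = 0.33, limma adjusted p-value = 0.0113). Cdk5r1, the activator of Cdk5, fell by 0.82 and Ptk2b, a calcium-activated tyrosine kinase, fell by 0.41 on the log2 scale. The limma adjusted p-values of Prkcb, Prkca, Cdk5r1 and Ptk2b were 4.78e-05, 0.00134, 3.47e-05 and 0.00189.

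Scaffold genes differed in direction. Dlg1 (SAP97) and Cask, both membrane-associated guanylate kinases, fell with log2(fold changes) of -0.54 and -0.37 (limma adjusted p-values of 0.00202 and 0.00387). Dlgap3 and Dlgap2, which link such scaffolds to Shank proteins, rose with log2(fold changes) of 0.85 and 0.48 (limma adjusted p-values of 0.000720 and 0.00184). Without bigenic mouse B, the log2(fold change) of Dlgap3 was 0.74 and it was still called (limma adjusted p-value = 7.38e-05). Of the same family of 4, Dlgap1 fell (log2(fold change) = -0.48, limma adjusted p-value = 0.00453) and Dlgap4 was not called (log2(fold change) = 0.05, limma adjusted p-value = 0.719). Of the other Dlg genes, Dlg2 and Dlg3 fell, with log2(fold changes) of -0.49 and -0.37 (limma adjusted p-values of 0.0159 and 0.00593). Dlg4 was not called (log2(fold change) = -0.13, limma adjusted p-value = 0.129). Homer1, Lin7a and Lin7c were also called lower, and Grip1 was called higher. Slc1a4, a transporter of neutral amino acids including serine, had 2502 to 2962 normalized counts in bigenic mice and 1374 to 1566 in nontransgenic mice, and rose by 0.91 on the log2 scale (limma adjusted p-value = 4.78e-05).

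The auxiliary subunits of kainate receptors were named whatever their result. Neto2 had 2310, 1696, 2382 and 2163 normalized counts in bigenic mice and 3519, 3173, 3276 and 2594 in nontransgenic mice. The groups did not overlap, and Neto2 fell with a log2(fold change) of -0.56 (SE 0.13, limma adjusted p-value = 0.00812). Neto1 had 1554, 1266, 1708 and 1706 normalized counts in bigenic mice and 2036, 1928, 1894 and 1688 in nontransgenic mice. These values overlapped, and Neto1 was not called (log2(fold change) = -0.28, 95% interval -0.53 to -0.04, limma adjusted p-value = 0.0676). Without bigenic mouse B, the log2(fold changes) of Neto2 and Neto1 were -0.45 and -0.19 (limma adjusted p-values of 0.00307 and 0.0648).

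Marker genes were summed per mouse to check the tissue label and to set beside the receptor results. Counts of called markers, for all cell types, stand against 20.5% of all genes called higher and 15.4% called lower. All 6 excitatory neuron markers and all 6 inhibitory neuron markers were measured, none at 0 in any mouse, and Slc17a7, the vesicular glutamate transporter of cortical excitatory neurons, was not called (log2(fold change) = 0.15). Excitatory markers summed to 21999 to 32864 in bigenic mice and 26929 to 30505 in nontransgenic mice, with 1 called higher and 1 (Nrgn) called lower. The highest of these sums was that of bigenic mouse B, and bigenic mice A, C and D had 21999, 26803 and 27667. Inhibitory markers summed to 15136 to 15723 and 16917 to 18678, with 2 of 6 called lower (Gad1 and Sst). Astrocyte markers summed to 24609 to 29994 and 31810 to 34408, with 3 of 6 called lower (Aqp4, Gja1 and Aldh1l1), and microglial markers to 3278 to 3709 and 4385 to 4956, with all 5 measured called lower, Cx3cr1 among them.

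Oligodendrocyte markers (1 of 6, Mobp, called higher), markers of their precursors (0 of 3 called by limma) and endothelial markers (1 of 4, Flt1, called lower) had summed levels that overlapped between the groups. Among markers that were not called, Mag (oligodendrocyte, higher), Slc1a3 (astrocyte, lower) and Pdgfra (precursor, lower) had unadjusted limma p-values below 0.05. Choroid plexus markers, led by Ttr, summed to 8385 to 19459 in bigenic mice and 363 to 1203 in nontransgenic mice, with all 4 measured called higher. Aif1, a microglial marker, and Folr1 and Kcnj13, choroid plexus markers, were not tested. The part of these cell types in the receptor results was not tested. Stretches of 50 exon bases were compared between subunit genes as read on the plus strand, with no mismatch allowed. In this comparison Grin1, Grik5, Grin3a and Grik1 shared none with another subunit gene, except for 6 in Grin3a that also occur in Grik4. Stretches shared in the sense direction with Grik3, which lies on the plus strand, and near matches could not be found this way.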

How the data were processed

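Poly(A)+ RNA from the cortex of 8 mice was sequenced with 50-base single-end reads. The authors trimmed adaptors (cutadapt), mapped to mm9 with Bowtie 0.12.7 (versions from the submitters' processing notes), kept unique reads, counted reads per exon with bedtools and merged exons into genes. The deposited values are a signal per transcript and mouse. They are whole numbers but not raw counts, since each mouse was scaled, so tests for raw counts were not run. A second deposited table, used for symbols of 10601 genes, holds the authors' own comparison (mean, log2 fold change, standard error, p-values, q-values), which was not used.

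Genes with at least 10 RPM (per column total) in at least 1 mouse were kept. Values were transformed as log2(value + 1), which understates changes of low genes, and fitted across all genes with limma 3.58.1 (lmFit, eBayes with trend, R 4.3.3), with no covariate. Genes with a Benjamini-Hochberg adjusted p-value below 0.05 were called. The fit was also run on simulated data, drawn as independent normal values with no outlying mouse. That run is therefore no check of the calls made here. Columns were assigned to groups by name. The subunits and gene lists were chosen with earlier results of these data known. Named are all 10 subunits, Grin2c, Neto1, Neto2, the 12 called partners with the smallest adjusted p-values (1 of which is not reported here) and the first marker of a list. Gria1, Gria3, Prkcc, Ephb2, Dlgap1, Dlgap4, Dlg2, Dlg3, Dlg4, Homer1, Lin7a, Lin7c, Grip1 and markers other than the first of a list were named after their values were seen. Positions, lengths and TG runs are from GENCODE vM1 on NCBIM37, matched by symbol (97.2% of symbols located, all subunits included). Alternatives were pseudocounts of 10 and 0.1, no filter, a filter in every mouse, equal totals, quantile normalization, limma's array weights and each mouse left out. A threshold of 0.01 was applied to the main fit only, and merged exon lengths were an alternative for levels per kb. Python 3.11.15, numpy 2.4.6, pandas 2.3.3 and matplotlib 3.10.9 were used.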

Additional observations from a re-analysis of the deposited data

Results flagged for a closer look

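Of 20 tests for a single mouse far from its group (10 subunits in 2 groups of 4 mice, by Dixon's criterion), 3 were positive, and chance alone gives about 1 in 20. Grin2a was 1248 normalized counts in nontransgenic mouse A, above the other 3 nontransgenic mice at 1130 to 1135. Grin3a was 739 in nontransgenic mouse C, below the other 3 at 872 to 883, and still above every bigenic mouse. Grik4 was 405 in nontransgenic mouse C, against 386 to 389 in the other 3. No value of bigenic mouse B met the criterion, its 15498 for Grin1 included.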

How the results depend on the processing

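The 2 subunits called lower (Grin3a and Grik1) were called lower in all 15 alternatives that give them an adjusted p-value, with log2(fold changes) of -0.68 to -0.57 and -0.54 to -0.40. The count of subunits called higher was 1 with no filter and with quantile normalization (Grik5 lost, limma adjusted p-values of 0.0556 and 0.0565), and 0 at a threshold of 0.01. It was 0 to 2 with each mouse left out, and 0 without nontransgenic mouse A, B or C. Grin1 lay between 0.32 and 0.55 and was not called in 3 of 15 alternatives, and Grik5 lay between 0.18 and 0.27 and was not called in 7 of 15. With array weights, 6455 genes were called, against 3796 in the main fit. Of the partners, 14 were called higher and 24 lower with array weights, against 9 and 19 in the main fit. Neto1 was called with array weights (limma adjusted p-value = 0.0129) and with quantile normalization (0.0435). With each mouse left out, 2654 to 4782 genes, 7 to 11 partners as higher and 17 to 20 as lower were called. The uncalled log2(fold changes) of Grik4 (-0.02 to 0.17) and Grin2d (-0.04 to 0.01) took both signs. Grin2d was not tested with the filter in every mouse or without bigenic mouse D, where it did not pass. No paired analysis was possible because the columns carry none of the replicate numbers in the labels. The cause of these changes was not tested. With merged exon lengths, an alternative chosen after seeing the data, the nontransgenic mean of Grin1 to Grin2a plus Grin2b was 0.926 in place of 1.92 and that of the high-affinity to other kainate subunits 1.57 in place of 1.25. With 4 mice per group the median SE of a log2(fold change) was 0.11, and Neto1 at -0.28 was not called.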
